A study of Mus musculus with 7 samples.

Results

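The 32 genes described here are the transcription factor p53 (gene symbol Trp53) and 31 genes it is known to switch on, listed by symbol and sorted by role into feedback, cell cycle arrest, cell death, DNA repair and metabolism. A gene entered by its listed symbol where an array probe set named that gene alone, and 28 of the 32 did, out of 19937 genes on the array with such a probe set. Trp53 itself, the death effector Bax and the secreted factor Gdf15 were not analysed here, and the arrest effector Cdkn1a, which encodes the cyclin kinase inhibitor p21, lay on a probe set listed with a second gene and is given no value. By role, 3 of 4 feedback genes, 5 of 6 arrest genes, 11 of 12 death genes, all 4 repair genes and 5 of 6 metabolism genes had a value. The list was made by name and function, but with earlier results of these data known, so it was not chosen blind to the knockout values.

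The protein p53 is held low in unstressed cells by Mdm2, a ubiquitin ligase that marks it for degradation and whose own gene p53 activates. When DNA is damaged or oncogenes are active, p53 accumulates, binds its response elements and raises genes that stop the cell cycle, repair DNA, change metabolism or kill the cell. Mouse embryonic fibroblasts stop dividing in culture after some passages, and lines that immortalise spontaneously have often lost p53 or its upstream activator Arf. Target gene RNA is therefore a customary readout of the pathway in such lines, although many targets also respond to other factors.

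The arrays profiled 7 clones of mouse embryonic fibroblasts that had immortalised spontaneously, in a comparison of cells that make tenascin-C, the matrix glycoprotein encoded by Tnc, with cells that lack or are depleted of it. Wild type comprised 3 clones grown from a wild-type mouse. Knockout comprised 2 clones grown from a mouse lacking Tnc, and knockdown comprised 2 wild-type clones that carry a stably integrated hairpin (shRNA) directed at Tnc. In every group 50000 cells were seeded, kept for 2 days in DMEM with 10% fetal calf serum and given no treatment. No clone was labelled as carrying a control hairpin. Effects of carrying a hairpin and of Tnc depletion can therefore not be told apart in knockdown. Separate animals are not named for the clones of any group, and p-values cover only the variation among the clones used, which may be technical.

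Values are log2 signals as deposited, with array medians between 5.38 and 5.49 and correlations between arrays of 0.979 to 0.99. Tnc checked the labels: its log2 signal was 10.89, 11.42 and 11.38 in wild type, 8.05 and 8.51 in knockout and 7.33 and 6.52 in knockdown, with limma adjusted p of 0.042 and 0.0339 for the 2 deficient groups against wild type. It was not settled whether the Tnc probe set falls within the deleted exons. Of the fibroblast markers, 8 of 10 (all but Lum and Fap) lay above the array median on every array. No endothelial marker of 6 did, nor did an adipocyte marker of 4, and 1 of 6 macrophage and blood markers (Cd68) and 1 of 6 epithelial markers (Krt8) did. Of muscle markers 2 of 5 did (Myod1 and Acta1) and of neural markers 2 of 4, and the summed log2 signal of the muscle list was 27.7 to 28.9 in wild type, 28.1 to 29.4 in knockout and 27.8 to 28.6 in knockdown, whose part in the results was not tested. The 2 arrays numbered 2 in the deficient groups stood apart in sex-linked genes: Xist was 8.80 on knockout array 2 and at most 3.77 on every other array, and Y-linked Uty was 3.13 on knockout array 2 and 4.98 on knockdown array 2 against at least 6.75 elsewhere. Results are therefore also given without those 2 arrays, which leaves 1 clone in each deficient group, assumed to vary as much as the wild-type clones.

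In knockout clones, 21 of the 28 listed genes with a value lay above wild type and 7 below, and the median difference was above zero for feedback, arrest, death and repair genes and below zero for metabolism genes. A further list of p53 targets did not show this lean above zero, with 10 of 19 above zero. At an unadjusted p under 0.05, 5 of its genes were higher and 1 lower, beside 7.33% and 5.50% of all genes. Among the 28 members, the widest differences were those of the death receptor gene Eda2r (log2 difference 2.86), the detoxifying enzyme gene Ephx1 (2.61), Trp53inp1 (1.36), Zmat3 (1.26) and Polk (1.01). None of the 28 members passed an adjusted p of 0.05 in limma (Benjamini-Hochberg adjustment over all 16801 genes tested), a threshold that 0.167% of those genes passed. At an unadjusted p under 0.05, 14 members were higher and 0 lower, against 7.33% of all genes tested that were higher and 5.50% that were lower. All arrays of the 2 groups were separate, with knockout above, in 16 members (13.2% of all genes), and with knockout below in 1 member, Sesn1 (15.3% of all genes). The median difference over members was 0.39 beside -0.03 over all genes, of which 42.8% lay above zero. Array signals come from whole cultures, so a change in the number of cells that express a gene and a change in its RNA per cell cannot be told apart.

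These counts shifted with the arrays used. Without knockout array 1 the number of members at an unadjusted p under 0.05 went from 14 to 7, and without both arrays numbered 2 it was 9, while the median difference stayed at 0.37 and 0.44. The number of genes passing among all tested, 28, was 77 without knockout array 2 and 14, 7, 3, 6 and 6 without wild-type array 1, 2 or 3 or knockdown array 1 or 2. Centring every array on its median turned the 20 higher and 8 lower genes into 61 and 10, and the 1232 higher and 924 lower genes at an unadjusted p into 1567 and 569. It moved the median over all genes from -0.03 to 0.02.

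**Figure D1:**
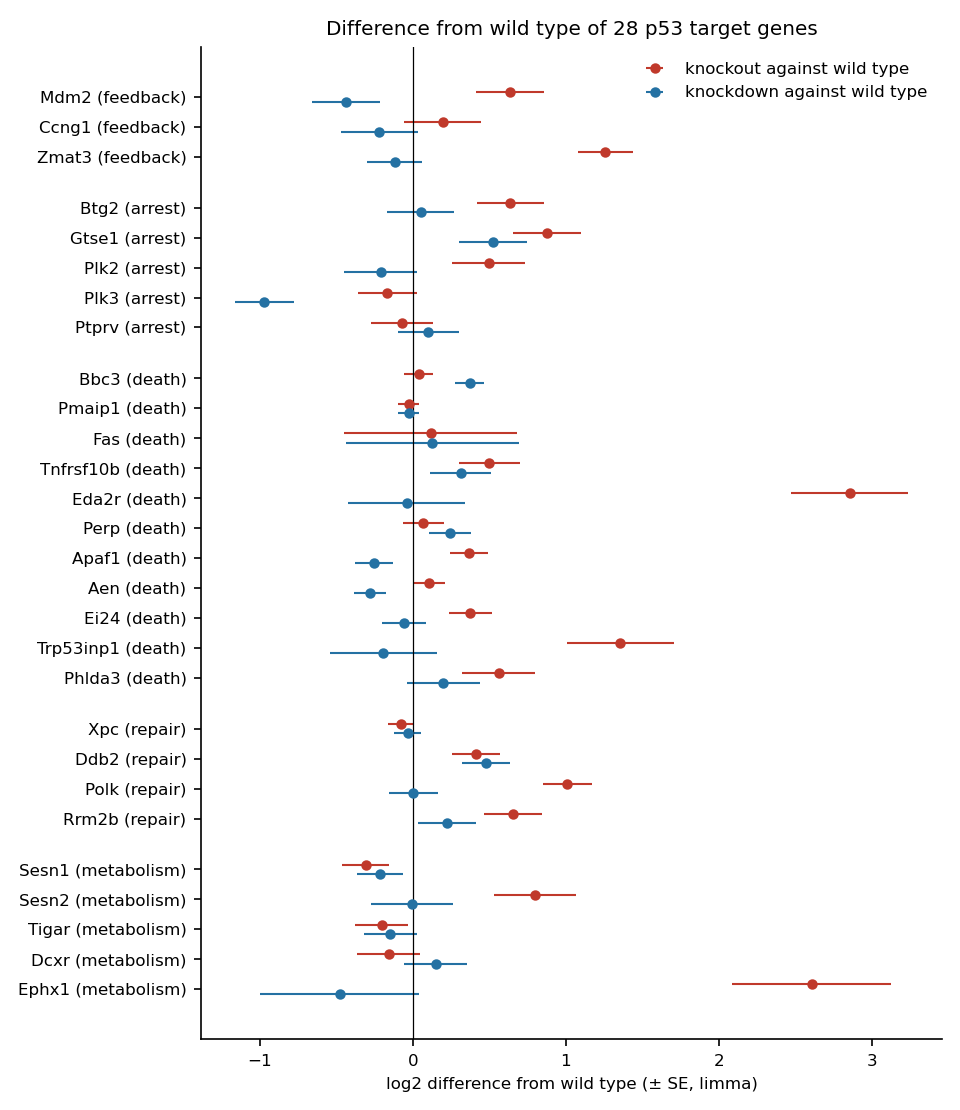
Log2 difference from wild type of each of the 28 members (points, with bars for the standard error from limma), for knockout (red) and knockdown (blue), ordered by role. Eda2r and Ephx1 lie farthest to the right in knockout at 2.86 and 2.61, while Plk3 lies farthest to the left in knockdown at -0.97.

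The plot of differences from wild type sets both deficient groups beside each other for every member. Both comparisons use the same 3 wild-type arrays, so an unusual wild-type value moves the red and the blue point of a gene the same way. In knockdown the points gathered around zero, with a median of -0.03 beside 0.03 over all genes.

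Sequences near the start of these genes were read to see which carry the DNA letters that p53 recognises. A p53 response element is built from copies of a 10-base p53 half-site, whose pattern reads the same on both strands, so a single search covers both, and no second motif was searched that could overlap it. RefSeq promoter windows (assembly GRCm38.p6, 250 bases before to 50 after a start) were at hand for 19 of the 28 members, and 7 of the 19 held a half-site, beside 9.55% of 27025 genes and 8.36% of 32851 windows. Each is shown in capitals within 30 bases of the gene's strand, 5′ to 3′, because these 7 are the members in which the pattern can be seen directly.
Mdm2: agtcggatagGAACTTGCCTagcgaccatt
Ccng1: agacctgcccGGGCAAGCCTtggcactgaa
Gtse1: gagcaagttgGGGCTTGCCTctgacttgcc
Aen: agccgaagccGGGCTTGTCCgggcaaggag
Ei24: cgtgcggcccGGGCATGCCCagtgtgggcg
Polk: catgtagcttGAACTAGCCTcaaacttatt
Sesn1: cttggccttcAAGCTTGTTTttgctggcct
The pieces lie at chr10:117710925-117710954 on the minus strand for Mdm2, chr11:40755452-40755481 on the minus strand for Ccng1, chr15:85859945-85859974 on the plus strand for Gtse1 and chr7:78895927-78895956 on the plus strand for Aen. Those of Ei24, Polk and Sesn1 lie at chr9:36797325-36797354 (minus), chr13:96519399-96519428 (minus) and chr10:41887256-41887285 (plus). Relative to the annotated start, the first capital stands at position -186 in Mdm2, -185 in Ccng1, 9 in Gtse1, 10 in Aen, -10 in Ei24, -231 in Polk and -173 in Sesn1. Of these 7 genes, 4 were higher in knockout at an unadjusted p under 0.05 with a median difference of 0.38, and of the 12 members whose window held no match, 5 were, with a median of 0.43. Over all genes tested, 7.33% were higher at that p. A match is a description of letters in a short window, not a site shown to be bound.

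The 3 feedback genes with a value were all above wild type in knockout on average, with a median difference of 0.64. At an unadjusted p under 0.05, 2 of them were higher, beside 7.33% of all genes. Zmat3, an RNA-binding zinc finger protein, had log2 signals of 6.41, 6.22 and 6.46 in wild type, 7.41 and 7.83 in knockout and 6.03 and 6.46 in knockdown. Both knockout arrays lay above all other arrays, and wild type and knockdown overlapped. The knockout difference was 1.26 ± 0.181 SE (2.39-fold, unadjusted p = 0.000421, limma adjusted p = 0.0783), and the knockout exceeded the knockdown by 1.38 ± 0.198 SE (adjusted p = 0.0617). Over the 18 alternative settings the adjusted p against wild type ran from 0.0486 to 0.274, and a filter that kept only genes above the array median on at least 2 arrays was the setting that took it under 0.05.

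Mdm2, the ligase that restrains p53, was 8.12, 7.75 and 7.74 in wild type, 8.85 and 8.17 in knockout and 7.48 and 7.39 in knockdown. Its arrays fell into 3 steps without overlap, knockout above wild type and wild type above knockdown. Knockout differed from wild type by 0.64 ± 0.222 SE (adjusted p = 0.329) and knockdown by -0.43 ± 0.222 SE (adjusted p = 0.45). The difference between knockout and knockdown was 1.07 ± 0.243 SE (2.1-fold, unadjusted p = 0.0044, adjusted p = 0.127), so the 3 steps did not pass after adjustment. Knockout array 1 carried much of the knockout value for Mdm2, which was 0.30 without it (unadjusted p = 0.169) and 0.98 without knockout array 2 (unadjusted p = 0.004). Ccng1, a cyclin G gene that feeds back on Mdm2, differed from wild type by 0.20 in knockout and -0.22 in knockdown, with overlapping arrays between 9.65 and 10.58.

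**Figure D2:**
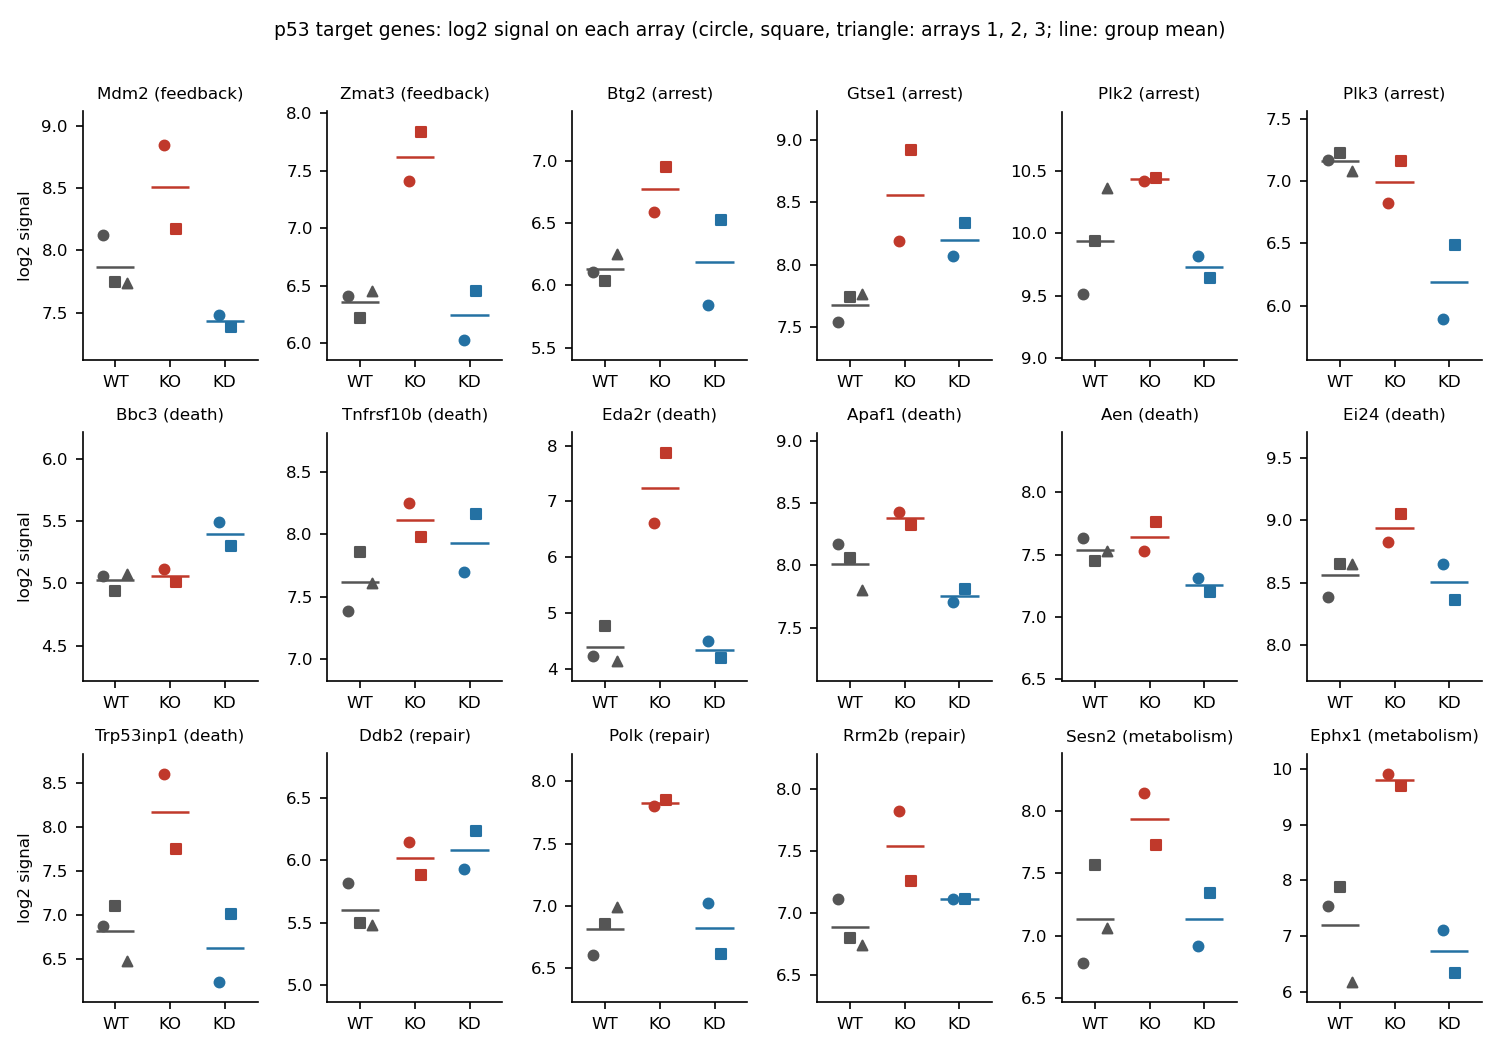
Log2 signal on every array (vertical axes, 1 panel a gene) for the 18 members at an unadjusted p under 0.05 in any comparison, in wild type (WT), knockout (KO) and knockdown (KD). Horizontal lines are group means and marker shapes are array numbers, and the knockout points lie above all others in such panels as Zmat3, Eda2r, Polk and Ephx1.

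Each panel of the plot of member values spans its own range of log2 signal, so heights can be compared within a panel and not between genes. In the panels of Plk3, Bbc3 and Aen the knockdown points are set apart while knockout and wild type overlap. In the Mdm2 panel all 3 groups are apart.

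Arrest genes were mixed, with 2 of 5 higher in knockout at an unadjusted p under 0.05 (7.33% of all genes) and a median difference of 0.50. Gtse1, a microtubule-bound protein that carries p53 out of the nucleus late in the cell cycle, was 7.54, 7.74 and 7.76 in wild type, 8.19 and 8.92 in knockout and 8.07 and 8.33 in knockdown. All 4 deficient arrays lay above all 3 wild-type arrays, and knockout and knockdown overlapped. The difference was 0.88 ± 0.223 SE in knockout (adjusted p = 0.204) and 0.52 ± 0.223 SE in knockdown (unadjusted p = 0.0568, adjusted p = 0.374). Without knockout array 1 the knockout difference was 1.25, and without knockout array 2 it was 0.51. The 693 tested genes of chromosome 15, where Gtse1 lies, had a median difference of 0.20 in knockout and 0.12 in knockdown, and the part of that shift in the Gtse1 value was not tested.

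Btg2, an antiproliferative gene of immediate early responses, was 6.11, 6.04 and 6.25 in wild type, 6.59 and 6.95 in knockout and 5.84 and 6.53 in knockdown. Knockout lay above wild type and knockdown on both arrays, while knockdown straddled wild type. Its knockout difference was 0.64 ± 0.22 SE (adjusted p = 0.326) and its knockdown difference 0.05 ± 0.22 SE. Plk2, a polo-like kinase of stress responses, was 9.51, 9.94 and 10.37 in wild type, 10.42 and 10.45 in knockout and 9.82 and 9.64 in knockdown. The knockout arrays were the 2 highest, just above the top wild-type array. That gave 0.50 ± 0.237 SE against wild type (unadjusted p = 0.0806, adjusted p = 0.453) and 0.71 ± 0.26 SE against knockdown (unadjusted p = 0.0343, adjusted p = 0.246).

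Plk3, a related kinase, went with the knockdown instead. It was 7.17, 7.23 and 7.08 in wild type, 6.83 and 7.16 in knockout and 5.89 and 6.49 in knockdown. Both knockdown arrays lay below all other arrays, and knockout overlapped wild type. The knockdown difference was -0.97 ± 0.193 SE (1.96-fold lower, unadjusted p = 0.00232, adjusted p = 0.162), the largest of any member in that comparison, and the knockout exceeded the knockdown by 0.80 ± 0.212 SE (adjusted p = 0.157). Without knockdown array 1 the knockdown difference was -0.67 and without knockdown array 2 it was -1.27. The phosphatase-family gene Ptprv was below the array median on every array, with differences of -0.07 and 0.10.

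Among death genes, the receptor genes differed from one another. Eda2r encodes a receptor of the tumour necrosis factor family that binds ectodysplasin A2. It was 4.24, 4.77 and 4.15 in wild type, 6.62 and 7.86 in knockout and 4.49 and 4.20 in knockdown. The 5 wild-type and knockdown arrays were all below their array medians, and both knockout arrays were above theirs. The knockout difference was 2.86 ± 0.383 SE (7.25-fold, unadjusted p = 0.000286, adjusted p = 0.0686), and knockout exceeded knockdown by 2.90 ± 0.42 SE (adjusted p = 0.0617). Over the 18 alternatives the adjusted p against wild type ran from 0.0428 to 0.274, under 0.05 with the stricter filter and with median centring. Eda2r passes the stricter filter through its 2 knockout arrays alone, so its value there is no support. Eda2r lies on chromosome X, whose 518 tested genes had a median difference of -0.04 in knockout, and without the 2 arrays that stood apart in sex-linked genes its difference was 2.23 (unadjusted p = 0.00687).

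Tnfrsf10b, the receptor for the death ligand TRAIL, was 7.38, 7.86 and 7.61 in wild type, 8.25 and 7.98 in knockout and 7.70 and 8.16 in knockdown. Knockout lay above wild type, and knockdown overlapped both. Its difference was 0.50 ± 0.199 SE in knockout (adjusted p = 0.379) and 0.31 ± 0.199 SE in knockdown (adjusted p = 0.538). Fas, the receptor for Fas ligand, ranged from 5.12 to 6.71 in wild type alone, and all groups overlapped, with differences of 0.12 ± 0.567 SE in knockout and 0.13 ± 0.567 SE in knockdown. With such a spread a difference of the size measured for Btg2 or Mdm2 was not detectable in Fas.

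Of the genes acting at mitochondria and in caspase activation, Apaf1, the scaffold of the apoptosome, was 8.17, 8.06 and 7.80 in wild type, 8.43 and 8.33 in knockout and 7.71 and 7.81 in knockdown. Knockout was highest on both arrays, and wild type and knockdown overlapped. Its differences were 0.37 ± 0.123 SE in knockout (unadjusted p = 0.0238, adjusted p = 0.312), -0.25 ± 0.123 SE in knockdown and 0.62 ± 0.134 SE between the 2 (unadjusted p = 0.00351, adjusted p = 0.117). Ei24, a membrane protein of the endoplasmic reticulum first found as a gene induced by etoposide, was 8.38, 8.65 and 8.65 in wild type, 8.82 and 9.05 in knockout and 8.65 and 8.36 in knockdown. Both knockout arrays were again the highest, by 0.38 ± 0.141 SE over wild type (adjusted p = 0.36).

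The 2 members that encode BH3-only proteins, which trigger mitochondrial death by binding BCL2 proteins, were not higher in knockout at an unadjusted p under 0.05. Bbc3, which encodes Puma, was 5.06, 4.93 and 5.08 in wild type, 5.11 and 5.01 in knockout and 5.49 and 5.30 in knockdown. Knockdown lay above all other arrays, and knockout overlapped wild type. The gene was above the array median on only 1 array. The knockdown difference was 0.37 ± 0.0933 SE (1.29-fold, unadjusted p = 0.00707, adjusted p = 0.199), and knockout was below knockdown by 0.33 ± 0.102 SE (unadjusted p = 0.0168, adjusted p = 0.189). Pmaip1, which encodes Noxa, had the identical value of 5.615 on 6 arrays and 5.695 on wild-type array 3, so its group differences of -0.03 rest on 1 array. Equal values on at least 2 arrays occurred in 55.7% of all genes in the deposited table.

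Trp53inp1, a stress-induced nuclear protein that enhances p53 activity, was 6.88, 7.10 and 6.47 in wild type, 8.60 and 7.75 in knockout and 6.24 and 7.01 in knockdown. Both knockout arrays exceeded the others, and wild type and knockdown overlapped. It differed by 1.36 ± 0.349 SE in knockout (2.56-fold, unadjusted p = 0.00791, adjusted p = 0.208) and by 1.55 ± 0.382 SE between knockout and knockdown (adjusted p = 0.143). Aen, an exonuclease of apoptotic nuclei, was 7.64, 7.45 and 7.53 in wild type, 7.53 and 7.76 in knockout and 7.31 and 7.20 in knockdown. Knockdown was below all other arrays, by 0.28 from the wild-type mean (difference -0.28 ± 0.105 SE, unadjusted p = 0.0353, adjusted p = 0.319). Phlda3, a pleckstrin-homology repressor of Akt, lay 0.56 ± 0.239 SE above wild type in knockout (unadjusted p = 0.0566, adjusted p = 0.403) with separate arrays, while the adhesion gene Perp was below the array median on all arrays and differed by 0.07 in knockout and 0.24 in knockdown. By role, 5 of the 11 death genes with a value were higher in knockout at an unadjusted p under 0.05 (7.33% of all genes). In 6 the arrays were separate with knockout above (13.2% of all genes), and the median was 0.37.

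Repair genes had 3 of 4 members higher in knockout at an unadjusted p under 0.05 (7.33% of all genes), with a median difference of 0.53. Polk, the translesion DNA polymerase kappa, was 6.60, 6.85 and 6.99 in wild type, 7.80 and 7.85 in knockout and 7.02 and 6.61 in knockdown. The 2 knockout arrays lay close together and above all others, and wild type and knockdown overlapped. The knockout difference was 1.01 ± 0.162 SE (2.02-fold, unadjusted p = 0.000751, adjusted p = 0.0927) and the knockdown difference 0.00 ± 0.162 SE. Across the 18 alternatives the knockout difference stayed between 0.90 and 1.10. Several of these settings, such as the filters and leaving out a knockdown array, could not change it.

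Rrm2b, the p53-inducible small subunit of ribonucleotide reductase, was 7.11, 6.80 and 6.75 in wild type, 7.82 and 7.26 in knockout and 7.11 on both knockdown arrays. Knockout was above all other arrays, and 3 arrays shared the value 7.111. Its difference was 0.65 ± 0.19 SE in knockout (unadjusted p = 0.0135, adjusted p = 0.248), 0.37 without knockout array 1 and 0.93 without knockout array 2, and it too lies on chromosome 15. Ddb2, a subunit that recognises ultraviolet damage, was 5.82, 5.50 and 5.48 in wild type, 6.15 and 5.88 in knockout and 5.93 and 6.24 in knockdown. All 4 deficient arrays exceeded wild type and overlapped one another. Ddb2 was the only member with an unadjusted p under 0.05 in the same direction in both deficient groups, at 0.41 ± 0.159 SE in knockout (adjusted p = 0.367) and 0.48 ± 0.159 SE in knockdown (adjusted p = 0.276), both against the same wild-type arrays. Xpc, the damage sensor of nucleotide excision repair, had the narrowest wild-type range of any member (0.0796) and differed by -0.08 in knockout and -0.03 in knockdown.

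Metabolism genes had a median of -0.16 in knockout, with 2 of 5 higher at an unadjusted p under 0.05 (7.33% of all genes) and 3 of 5 below zero. Ephx1, microsomal epoxide hydrolase, was 7.54, 7.88 and 6.18 in wild type, 9.91 and 9.70 in knockout and 7.11 and 6.34 in knockdown. Both knockout arrays lay above all others, and the wild-type arrays spread over 1.70, the widest of any member. The knockout difference was 2.61 ± 0.52 SE (6.1-fold, unadjusted p = 0.00234, adjusted p = 0.133), and knockout exceeded knockdown by 3.09 ± 0.57 SE (8.49-fold, adjusted p = 0.0916). Without both arrays numbered 2 the difference from wild type was 2.71 with an unadjusted p of 0.0544.

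Sesn2, a stress-induced inhibitor of mTORC1, was 6.78, 7.56 and 7.06 in wild type, 8.14 and 7.72 in knockout and 6.91 and 7.34 in knockdown. Knockout was above all other arrays, while knockdown lay within wild type. The knockout difference was 0.80 ± 0.268 SE (adjusted p = 0.314). Its relative Sesn1 was separate in the other direction, 0.31 ± 0.151 SE below wild type in knockout (unadjusted p = 0.0876) and -0.21 ± 0.151 SE in knockdown. Tigar, which lowers glycolytic flux, and Dcxr, a sugar reductase, overlapped in all groups, with knockout differences of -0.20 and -0.16.

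The knockdown clones differed from wild type in few members. None passed after adjustment in limma, where 0.0179% of all genes did. At an unadjusted p under 0.05, Bbc3 and Ddb2 were higher and Plk3 and Aen lower, 2 members each way beside 7.12% and 6.99% of all genes. Arrays were separate and higher in 4 members, Bbc3, Ddb2, Gtse1 and Perp, where 17.5% of all genes were, and separate and lower in 4, Plk3, Aen, Mdm2 and Sesn1, where 12.9% were. These shares of members lay near the shares of all genes. The 4 members at an unadjusted p became 2 without knockdown array 2 and 2 without both arrays numbered 2, and the 3 genes passing over the whole table became 0 with any single array left out. Centring arrays on their medians turned 1197 higher and 1174 lower genes at an unadjusted p into 909 and 1354. The members' median lay between -0.10 without wild-type array 1 and -0.003 without wild-type array 2.

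Knockout against knockdown tests whether both deficient states differ, and it shares its knockout arrays with the comparison above. No member passed after adjustment, where 0.375% of all genes did, although Eda2r and Zmat3 came closest with adjusted p of 0.0617 each, followed by Polk at 0.0865 and Ephx1 at 0.0916. At an unadjusted p under 0.05, 12 members were higher in knockout and 1, Bbc3, lower, beside 9.05% and 8.87% of all genes. Arrays were separate with knockout above in 15 members (17.8% of all genes) and below in 2, Bbc3 and Perp (27.2% of all genes). Centring arrays on their medians turned the 1520 higher and 1491 lower genes at an unadjusted p into 2076 and 816. The median over members was 0.40 beside -0.05 over all genes, and by role it was 1.07 for feedback, 0.59 for arrest, 0.36 for death, 0.19 for repair and -0.06 for metabolism. Of the 14 members higher in knockout than in wild type at an unadjusted p, 9 were also higher than in knockdown, and knockdown lay below wild type in 8 and above in 6. The genes passing over the whole table, 63, were 16, 12, 7, 32, 111, 12 and 0 with wild-type array 1, 2 or 3, knockout array 1 or 2, or knockdown array 1 or 2 left out. Without both arrays numbered 2, 8 members remained at an unadjusted p under 0.05 in place of 13.

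**Figure D3:**
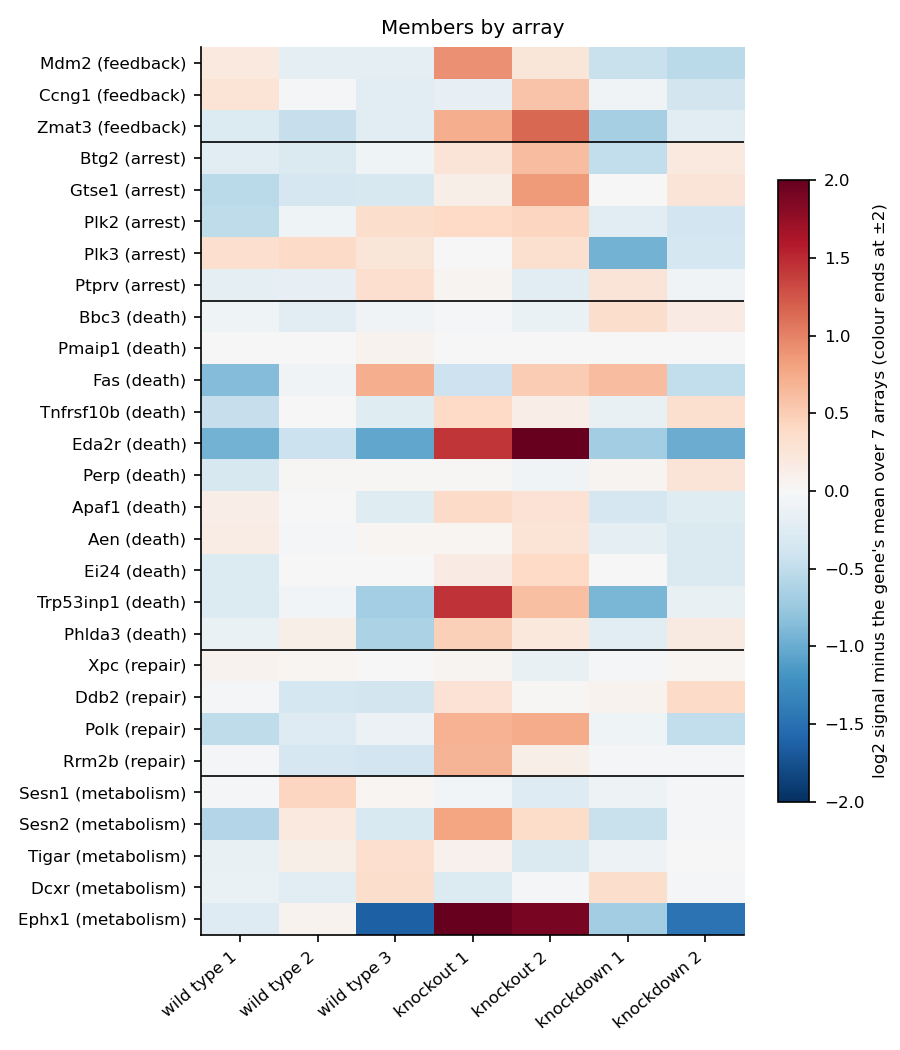
Log2 signal minus each gene's mean over the 7 arrays (colour, red above and blue below, ending at ±2) for the 28 members in rows, ordered by role, and the 7 arrays in columns. The knockout columns are the reddest, with Eda2r and Ephx1 the darkest cells, while Pmaip1 and Xpc are pale throughout.

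The heat map shows that the 2 knockout clones were not copies of each other. Knockout array 1 was the higher of the 2 in 15 members, among them Mdm2, Trp53inp1, Rrm2b and Sesn2, and knockout array 2 in 12, among them Eda2r, Zmat3, Gtse1 and Btg2. The widest gap between them was 1.24, in Eda2r. Array 1 exceeded all wild-type and knockdown arrays in 14 members and array 2 in 16. In 13 members both did, beside 8.21% of all genes.

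**Figure D4:**
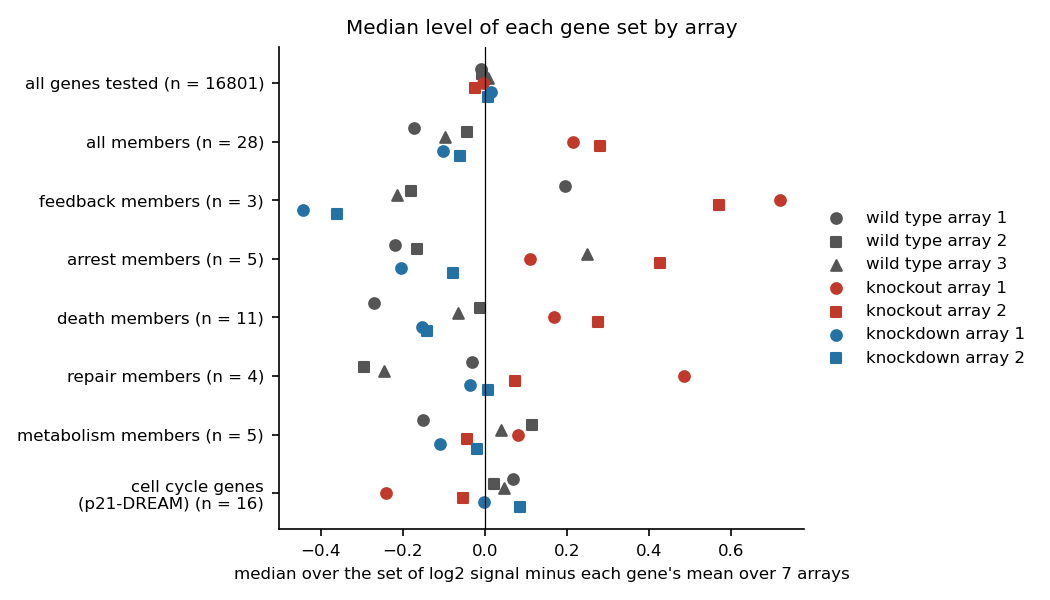
Median, over each set of genes, of log2 signal minus the gene's mean over the 7 arrays (horizontal axis), for every array (1 point each, colour for group and shape for array number). The members stand at 0.21 and 0.28 on the knockout arrays and between -0.17 and -0.04 on the other 5, and all genes tested stay between -0.02 and 0.01.

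In the plot of set medians by array, the 28 members stood at 0.21 and 0.28 on the knockout arrays, at -0.17, -0.04 and -0.10 on the wild-type arrays and at -0.10 and -0.06 on the knockdown arrays. Leaving out Eda2r, the member with the widest change, put the knockout arrays at 0.17 and 0.28 and all others at -0.04 or lower. The feedback genes spread most, from -0.44 on knockdown array 1 to 0.72 on knockout array 1. Metabolism genes did not separate, with knockout at 0.08 and -0.04 inside the wild-type span of -0.15 to 0.12.

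Genes that surround p53 in the pathway were taken from 5 further lists, of which no gene passed after adjustment in any comparison. Among 22 genes that control p53, such as its kinases, acetylases and ubiquitin ligases, 12 lay above and 10 below zero in knockout. Over all genes 42.8% lay above zero. The median of the 22 was 0.01, and 3 were lower at an unadjusted p, beside 5.50% of all genes. The 2 of smallest p were the deacetylase gene Sirt1 (-0.46 ± 0.154 SE, adjusted p = 0.317) and Trp53bp2 (-0.50 ± 0.173 SE, adjusted p = 0.329), which encodes a cofactor that steers p53 to death genes. In knockdown 8 of the 22 were above zero, beside 57.0% of all genes, with a median of -0.16, and 6 were lower at an unadjusted p, beside 6.99% of all genes. The 2 of smallest p were the deubiquitinase gene Usp7 (-0.46 ± 0.0704 SE, adjusted p = 0.123) and the checkpoint kinase gene Chek1 (-0.42 ± 0.0899 SE, adjusted p = 0.164). Both were also higher in knockout than in knockdown, Usp7 by 0.44 (adjusted p = 0.0868) and Chek1 by 0.55 (adjusted p = 0.0875).

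Of 22 other p53 targets, 19 were tested, and 10 lay above and 9 below zero in knockout, with a median of 0.01 where the members' median was 0.39. At an unadjusted p, 5 were higher and 1 lower, beside 7.33% and 5.50% of all genes. Arrays were separate with knockout above in 7 and below in 3, beside 13.2% and 15.3% of all genes. Psrc1, a microtubule protein, was 1.67 ± 0.331 SE higher (adjusted p = 0.132), with 6.38, 6.82 and 6.44 in wild type and 7.95 and 8.49 in knockout. Igfbp3, which binds insulin-like growth factors, was lower by 1.69 ± 0.303 SE in knockout (adjusted p = 0.117). In knockdown 15 of the 19 lay above zero, beside 57.0% of all genes, with a median of 0.20, and 4 were higher at an unadjusted p, beside 7.12% of all genes. Those of smallest p were the cyclin gene Ccng2 (0.76, adjusted p = 0.174) and the lipase gene Abhd4 (0.52, adjusted p = 0.174). Between knockout and knockdown the 2 of smallest p were Igfbp3 (-1.66, adjusted p = 0.105) and the costimulatory gene Cd80 (-0.34, adjusted p = 0.127), which is below the array median on all arrays.

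**Figure D5:**
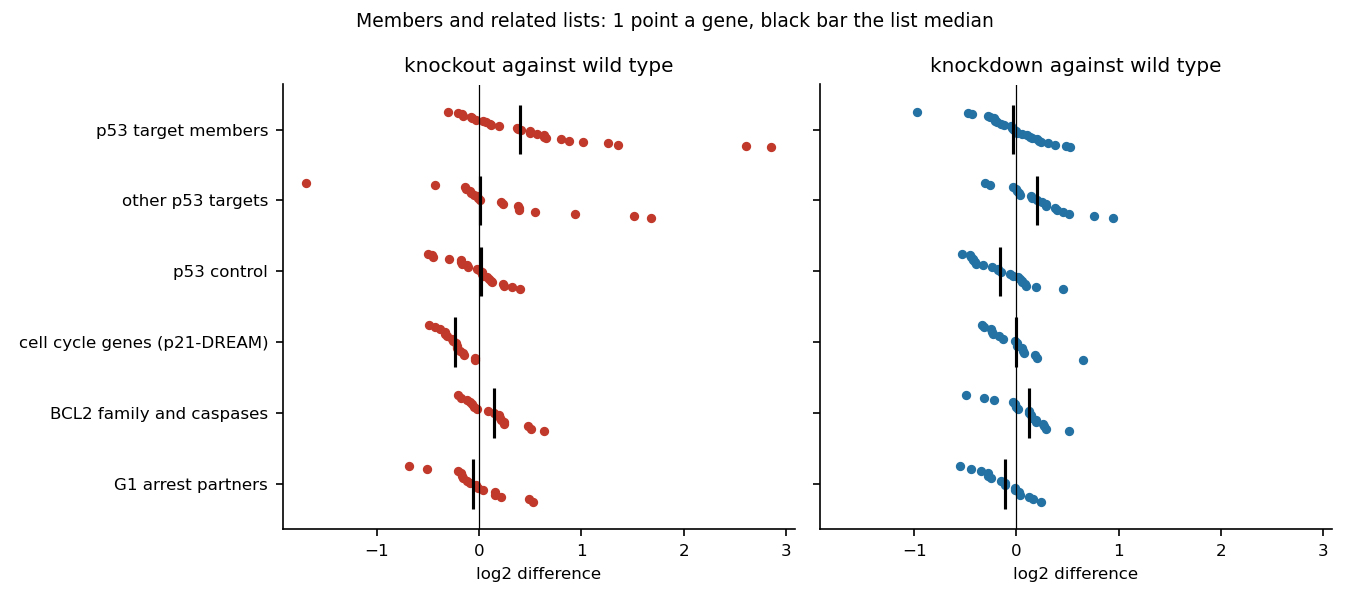
Log2 difference from wild type (horizontal axis) of each tested gene (points) in the members and in 5 related lists, for knockout (left) and knockdown (right), with a black bar at each list's median. All 16 cell cycle genes lie left of zero in knockout, with a median of -0.24, while the members' median is 0.39.

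Another of the lists held cell cycle genes that p53 can repress through p21 and the DREAM complex. Whether p53 or p21 had a part in their values was not tested. All 16 genes of this list with a test lay below zero in knockout, as the plot of related lists shows, with a median of -0.24. Of them, 3 were lower at an unadjusted p and 8 had separate arrays, beside 5.50% and 15.3% of all genes. Over all genes the median was -0.03, and 42.8% lay above zero. Ccna2 (cyclin A2) was 10.60, 10.51 and 10.57 in wild type and 10.21 and 10.24 in knockout (-0.33 ± 0.0894 SE, adjusted p = 0.217). Plk1, a mitotic kinase, differed by -0.34 ± 0.101 SE (adjusted p = 0.264). By array the list stood at -0.24 on knockout array 1 and at -0.05 on knockout array 2, below the 0.02 to 0.07 of the wild-type arrays. In knockdown 8 lay above and 8 below zero, with Cdc25c, a phosphatase that starts mitosis, at 0.65 (adjusted p = 0.325) and Cdk1 at -0.23 (adjusted p = 0.445). Knockout was lower than knockdown in Cdc25c by 1.15 (adjusted p = 0.138) and in Ccna2 by 0.39 (adjusted p = 0.144).

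Among BCL2 family and caspase genes, 17 were tested, with medians of 0.15 in knockout and 0.12 in knockdown. The BH3-only gene Bid was 0.64 ± 0.208 SE higher in knockout (adjusted p = 0.304) and the survival gene Bcl2 0.51 ± 0.169 SE higher (adjusted p = 0.313). Cytochrome c (Cycs) was lower in knockdown by 0.49 ± 0.071 SE (adjusted p = 0.115), and the BH3-only gene Bcl2l11, which encodes Bim, was 0.51 higher (adjusted p = 0.306). In knockout Bcl2l11 was 0.47 higher, and knockout and knockdown differed by -0.04. Bid and Cycs exceeded knockdown in knockout by 0.96 (adjusted p = 0.139) and 0.58 (adjusted p = 0.0543). The 16 partners of G1 arrest, cyclins, their kinases, further inhibitors and the retinoblastoma family, had medians of -0.06 and -0.11. Cdk6 was lower in knockout by 0.69 ± 0.248 SE (adjusted p = 0.341), and Ccne2 was 0.22 higher in knockout (adjusted p = 0.38) and lower in knockdown by 0.45 (adjusted p = 0.162). Ccnd1 (cyclin D1) was lower in knockdown by 0.56 (adjusted p = 0.162), and the knockout exceeded the knockdown by 0.71 (adjusted p = 0.0827).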

How the data were processed

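RNA of 7 clones was hybridised to Affymetrix whole-transcript mouse arrays. The deposited values are log2 signals made with affy in R 2.8.0, per the submitters' processing notes; how they were summarised and normalized is not given in the sources used here, and their range (1.81 to 13.7) marks a log2 scale. Of 34760 probe sets, 21640 had 1 gene symbol, 1321 several and 11799 none in the platform table used; names from several were not used. Where a gene had several probe sets, the one with the highest mean was taken. Of the single-symbol probe sets, 21553 had identifiers matched to RefSeq GRCm38.p6. Testing was limited to genes that exceeded an array's 25th percentile in 2 or more arrays (16801, all 28 members among them).

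One linear model with 3 group means was fitted to the 7 arrays (limma 3.58.1, R 4.3.3, functions lmFit and eBayes, two-sided; 4 residual and 2.06 prior degrees of freedom), with Benjamini-Hochberg adjustment over all genes tested in each comparison. The fit was tested on simulated data with 200 changed genes. The small number of arrays limits the precision. Members at an unadjusted p under 0.05 in any comparison, or with a log2 difference of 1 or more, are given array by array, and of each related list the 2 of smallest p; no list was tested as a set. Members, lists and rules were chosen with earlier results of these data known, among them the higher p53 targets in knockout. The alternatives were filters, quantile normalization, median centring, the mean of probe sets, an intensity trend, robust moderation, array weights, fits of 2 groups, a replicate block, each array left out and both arrays numbered 2 left out.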

Additional observations from a re-analysis of the deposited data

Results flagged for a closer look

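Mdm2 was flagged because both knockout arrays lay above, and both knockdown arrays below, every wild-type array. The means of the 2 deficient groups thus lay on opposite sides of wild type. The difference between them, 1.07 on the log2 scale (8.85 and 8.17 in knockout, 7.48 and 7.39 in knockdown), was tested in limma and did not pass after adjustment (adjusted p = 0.127, between 0.0727 and 0.345 over 18 alternatives). Against wild type, neither the knockout difference (limma adjusted p = 0.329) nor the knockdown difference (limma adjusted p = 0.45) passed. No group held the 4 or more arrays needed to look for single arrays far from the rest.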

How the results depend on the processing

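Direction held in all 18 alternatives for each of the 14 members higher in knockout, which is no support. In each of these members both knockout arrays lay above every wild-type array, so leaving arrays out could not turn the sign. Filters, the mean of probe sets, the intensity trend, robust moderation and a fit of the 2 groups leave the difference itself unchanged. Signs changed in alternatives only for members whose p in that comparison was above 0.05. After adjustment 11 member values passed under an alternative (of Eda2r, Zmat3 and Polk) that did not pass otherwise, and 39 values of members whose unadjusted p in that comparison was not under 0.05 moved by more than the spread between replicates. Members passing in knockout against wild type, 0, became 2 with the stricter filter (Eda2r and Zmat3, of which Eda2r is kept by that filter in both knockout comparisons through its knockout arrays alone) and 1 with median centring; in knockout against knockdown they became 2, 1 (quantile), 3 (centring) and 2 (robust moderation). Genes passing in knockout against wild type, 28, became 79 with the stricter filter, 49 with quantile normalization, 71 with median centring, 43 with robust moderation, 6 in a fit of the 2 groups and 1 without both arrays numbered 2, and ran from 3 to 77 with 1 array left out. In knockdown the 3 became 0 in a fit of the 2 groups, without both arrays numbered 2 and with any array left out. In knockout against knockdown the 63 became 38 with no filter, 111 with the stricter filter, 103 with quantile normalization, 137 with centring, 26 with an intensity trend, 105 with robust moderation, 18 with array weights and 0 in a fit of the 2 groups or without both arrays numbered 2, and ran from 0 to 111 with 1 array left out. Members at an unadjusted p, 14, 4 and 13 in the 3 comparisons, became 9, 2 and 8 without both arrays numbered 2 and ran from 7 to 13, 2 to 6 and 9 to 13 with 1 array left out. The members' median in knockout was 0.50 with the stricter filter, which drops low members; in knockdown it ran from -0.10 to -0.003 with 1 array left out. In knockout against knockdown it was 0.31 with quantile normalization, 0.48 with centring and ran from 0.32 to 0.53. Some settings also use fewer genes or arrays, and causes of these shifts were not tested.

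With the replicate block, 2, 0 and 2 genes passed in the 3 comparisons and 10, 6 and 12 members had an unadjusted p under 0.05. Deviations from group means correlated from -0.07 to 0.20 between same-numbered arrays and from -0.21 to 0.21 between differently numbered ones. In a group of 2 arrays the deviations mirror each other, so these correlations cannot decide whether same-numbered clones were handled together.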
